A study of Mus musculus with 11 samples.

Results

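The genes described here are 36 interferon-stimulated and MHC class I genes of the mouse, followed through 11 RNA libraries of cerebellar tumours. They were chosen as a list of symbols and looked up in the deposited table of 38406 genes. Of the 36, 35 had a row in the table, and Ifi27 was not analysed here. Of these 35, 34 had enough counts to be tested, among 15228 tested genes in all. Oas1a, which makes the 2-5A messenger of the antiviral RNA decay pathway, was in the table and had too few counts for a test.

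The study set new mouse models of medulloblastoma, a tumour of the cerebellum, beside constitutive models described earlier. All tumours carried MYC, came from mice of strain CD1, were frozen fresh and received no treatment. The N1ICD tumours (n = 3) were induced by MYC, Gfi1 and N1ICD, the active intracellular part of the receptor Notch1, expressed in Math1-positive cells. The S100b-cell tumours (n = 3) were induced by MYC and Gfi1 in S100b-positive cells. The MYC/Otx2 tumours (n = 3) and the MYC/Gfi1 tumours (n = 2) carried the genes of their names with expression labelled as constitutive. Every group apart from MYC/Otx2 therefore carried Gfi1 beside MYC. Each library is bulk RNA of a whole tumour with the cells of its host, so fewer cells of a type and less RNA per cell cannot be told apart. The labels name neither the vectors and promoters nor the age of the mice. The labels do not say that replicates came from separate animals, so p-values measure the spread between these samples, which may be technical.

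Interferons are secreted proteins that warn cells of infection and damage. Type I interferons act through a complex with STAT2 and IRF9 that binds the interferon-stimulated response element (ISRE), while interferon gamma acts on genes that carry the gamma-activated site (GAS). The genes they switch on block viruses, and many raise antigen presentation. MHC class I molecules show peptides from inside the cell to CD8 T cells. Each needs a heavy chain such as H2-K1 or H2-D1, the light chain B2m, and peptide that the transporter Tap1 and Tap2 moves and that Tapbp helps to load. In brain tumours both the tumour cells and the immune and vascular cells around them can express these genes.

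Library totals ran from 2.58 to 3.38 M counts in N1ICD tumours, 12.77 to 15.19 M in S100b-cell tumours, 6.97 to 8.33 M in MYC/Otx2 tumours and 6.53 to 7.53 M in MYC/Gfi1 tumours. The share of counts from mitochondrially encoded genes was 23.3% to 27.6% in N1ICD tumours and 14.7% to 18.5% in S100b-cell tumours, against 5.18% to 5.74% in MYC/Otx2 and 5.96% to 6.00% in MYC/Gfi1 tumours. Column names follow 3 styles, and the N1ICD and S100b-cell groups each have a style of their own. The labels name no batch of preparation or sequencing. A difference between library sets and a difference between models therefore cannot be told apart. The constitutive groups share a style, which does not show that they were prepared together. As a check of the labels, Otx2 stood at 13.7, 42.5 and 97.0 CPM (counts scaled to library size) in MYC/Otx2 tumours and at 0 to 13.7 CPM elsewhere, so that N1ICD replicate 1 (32 counts) reached the level of MYC/Otx2 replicate 1 (97 counts). Summed over 8 cerebellar and medulloblastoma identity genes, N1ICD replicates 2 and 3 and S100b-cell replicate 1 held 12.0 to 23.01 CPM. The other 8 libraries held 63.8 to 2217 CPM. Otx2 is 1 of these 8 genes, so the sums of MYC/Otx2 tumours include a gene of their name.

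These genes held ISRE letters around their start sites more often than all genes did. Promoter windows from RefSeq (GRCm38.p6, 250 bases before to 50 after the start site) were matched for 30 of the 36 genes. The ISRE core is GAAA followed by any 2 bases and a second GAAA, searched on both strands. Some genes have several windows, and a gene counted if any of its windows held the letters. The core was found for 16 of these 30 genes (53.3%), against 3.99% of all 27025 genes with windows. The GAS letters TTCNNNGAA were found for 9 of 30 genes (30.0%), against 9.55% of all genes with windows. For 4 genes both were found and for 9 neither. Of the 11 genes called in at least 1 comparison below, 5 had the core. Isg20, called below, had a GAS match and no core, and its windows are not printed. Windows of 6 genes are printed as examples. They hold the core more often than the called genes do, and Isg15 and Igtp among them were called in no comparison. Each is written on the strand of its gene, in lower case with the ISRE core in capitals, and positions count from the start site.
B2m: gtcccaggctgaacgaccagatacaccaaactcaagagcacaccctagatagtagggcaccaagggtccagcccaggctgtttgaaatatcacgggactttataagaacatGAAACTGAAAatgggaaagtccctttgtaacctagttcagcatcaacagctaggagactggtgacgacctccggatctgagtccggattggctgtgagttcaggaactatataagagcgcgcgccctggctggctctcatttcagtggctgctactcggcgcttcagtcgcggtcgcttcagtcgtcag
Isg15: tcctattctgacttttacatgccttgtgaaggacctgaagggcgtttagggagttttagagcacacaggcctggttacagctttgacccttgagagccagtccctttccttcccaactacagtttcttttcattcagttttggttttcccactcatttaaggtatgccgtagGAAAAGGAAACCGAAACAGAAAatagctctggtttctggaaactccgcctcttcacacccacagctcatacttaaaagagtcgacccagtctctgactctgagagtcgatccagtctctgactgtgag
Igtp: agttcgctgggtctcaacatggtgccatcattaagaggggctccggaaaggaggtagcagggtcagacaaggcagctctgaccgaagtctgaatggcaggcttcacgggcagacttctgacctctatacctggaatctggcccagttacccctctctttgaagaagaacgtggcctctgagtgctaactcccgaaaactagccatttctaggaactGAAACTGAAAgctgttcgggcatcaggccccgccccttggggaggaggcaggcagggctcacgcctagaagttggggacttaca
Ifitm1: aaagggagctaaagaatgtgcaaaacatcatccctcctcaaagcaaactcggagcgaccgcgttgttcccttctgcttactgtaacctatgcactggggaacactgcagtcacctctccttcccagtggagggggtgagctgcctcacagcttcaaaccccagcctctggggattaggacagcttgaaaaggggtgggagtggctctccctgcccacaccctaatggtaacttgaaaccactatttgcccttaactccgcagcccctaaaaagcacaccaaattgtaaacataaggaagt
Ifitm2: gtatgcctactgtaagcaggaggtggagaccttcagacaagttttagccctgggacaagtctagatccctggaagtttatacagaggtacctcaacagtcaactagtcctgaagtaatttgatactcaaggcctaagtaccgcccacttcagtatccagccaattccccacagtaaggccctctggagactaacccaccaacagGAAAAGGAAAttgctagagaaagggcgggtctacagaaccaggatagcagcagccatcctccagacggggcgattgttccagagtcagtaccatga
Ifitm3: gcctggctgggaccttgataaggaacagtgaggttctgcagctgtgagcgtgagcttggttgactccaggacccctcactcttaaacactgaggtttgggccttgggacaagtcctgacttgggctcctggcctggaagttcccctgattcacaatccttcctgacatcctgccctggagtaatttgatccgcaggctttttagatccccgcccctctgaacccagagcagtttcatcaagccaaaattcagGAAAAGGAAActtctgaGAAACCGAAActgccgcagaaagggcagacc

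The window of B2m lies at chr2:122147437-122147736 on the plus strand and has 1 core, beginning at position -139. That of Isg15 (chr4:156200769-156201068, minus strand) has 3 overlapping cores, beginning at -78, -72 and -66. That of Igtp (chr11:58199306-58199605, plus strand) has a core at -34 and a GAS match at -45. The 3 Ifitm genes are neighbours on chromosome 7 and differ in these letters. Ifitm1 (chr7:140967826-140968125, plus strand) has no core in the window, Ifitm2 (chr7:140955912-140956211, minus strand) has 1 at -46, and Ifitm3 (chr7:141010695-141010994, minus strand) has 2, at 3 and 20, with a GAS match at 14 that overlaps the second. A match describes the letters only, and no binding was measured.

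MYC/Otx2 tumours had the lowest mean level of most of these genes, a count that rested on 1 N1ICD library. The mean over libraries was lowest in MYC/Otx2 for 31 of the 34 tested genes, and the exceptions H2-K1, H2-D1 and Bst2 were lowest in N1ICD. Without N1ICD replicate 2, a setting chosen after the data were seen, the mean was lowest in MYC/Otx2 for 19 genes and in N1ICD for 15, while with any other library left out it was lowest in MYC/Otx2 for 29 to 34. The mean was highest in N1ICD for 6 genes, in S100b-cell for 15 and in MYC/Gfi1 for 13. The order of group means was not counted over all tested genes, so these counts are a description only. Summed over the 35 genes, the level was 611, 4016 and 486 CPM in N1ICD tumours and 5170, 3417 and 2466 CPM in S100b-cell tumours. It was 779.5, 389 and 285 CPM in MYC/Otx2 tumours and 1874 and 2898 CPM in MYC/Gfi1 tumours. By this sum N1ICD tumours were split, with replicate 2 near the S100b-cell libraries and replicates 1 and 3 near the MYC/Otx2 libraries. The split did not hold for every role. The GTPases summed to 5.1 and 8.1 CPM in N1ICD replicates 1 and 3, within the 2.31 to 41.7 CPM of MYC/Otx2 tumours. Ifitm1, Ifitm2, Ifitm3 and Bst2 summed to 226 and 197 CPM in those replicates, against 18.5 to 41.3 CPM in MYC/Otx2 tumours.

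**Figure D1:**
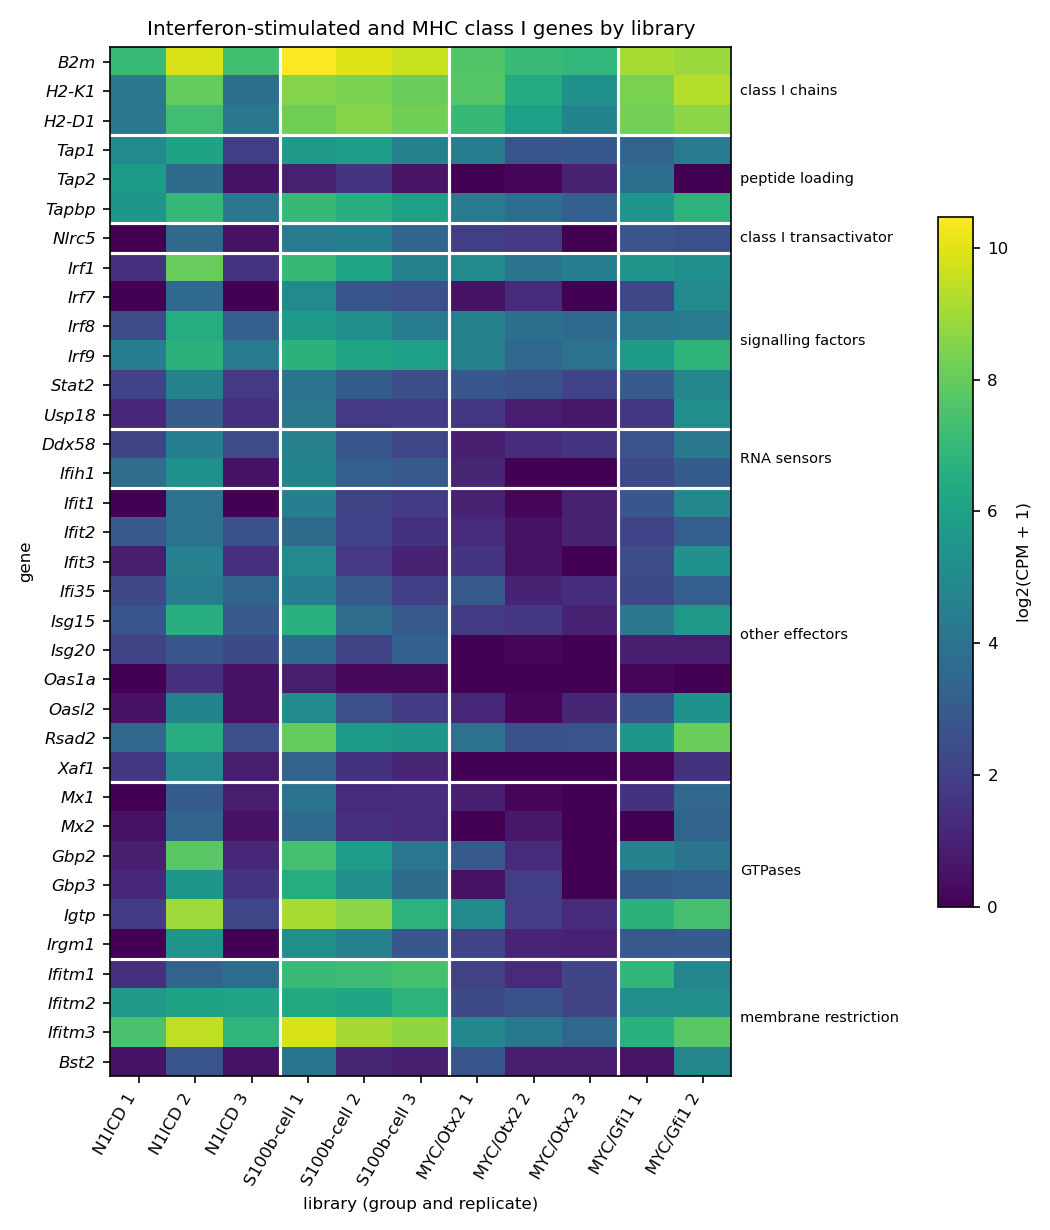
Level of each of the 35 genes (rows, ordered by role) in each of the 11 libraries (columns, by group and replicate), as log2(CPM + 1). N1ICD replicate 2 and S100b-cell replicate 1 are bright over most rows, and the MYC/Otx2 columns are dark, with Xaf1 at 0 counts in all 3.

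All 4 groups entered 1 edgeR quasi-likelihood fit, and 6 comparisons were drawn from it. A gene is called where its p, adjusted by Benjamini-Hochberg over all 15228 tested genes, is under 0.05. Comparisons that have a group in common share its libraries, so their results are not independent of each other. A gene that passed the low-count filter only through a group where it is high had to differ, so the counts and medians over these genes are a description.

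S100b-cell against MYC/Otx2 tumours gave the most calls. Of the 34 genes 9 were called higher and none lower, while 17.9% of all tested genes were called, 10.0% higher. The 9 were B2m, Tapbp, Irf9, Ifih1, Isg20, Gbp3, Ifitm1, Ifitm2 and Ifitm3. The log2 fold change was positive for all 34 and its median was 3.66, against 0.17 over all tested genes. The 3 libraries of S100b-cell tumours lay above the 3 of MYC/Otx2 tumours for 27 of 34 genes, against 28.6% of all tested genes. Without S100b-cell replicate 1 the calls fell to 4 and the median to 2.22. Without N1ICD replicate 2, a library of neither group that enters through the shared filter, scaling and spread, the calls numbered 17. Without MYC/Otx2 replicate 1, 2 or 3 the calls numbered 5, 4 and 4, and without S100b-cell replicate 2 they numbered 5.

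N1ICD against MYC/Otx2 tumours gave 7 genes called higher and none lower, while 21.8% of all tested genes were called, 12.0% higher. They were Tapbp, Ifih1, Ifit2, Isg20, Xaf1, Ifitm2 and Ifitm3. The log2 fold change was positive for 31 genes and negative for 3, with a median of 2.78 against 0.14 over all tested genes. The libraries did not overlap for 7 of 34 genes, all higher in N1ICD tumours, against 20.7% of all tested genes higher without overlap. Without N1ICD replicate 2 the median was 0.38, and the calls were 3 higher (Isg20, Ifitm2 and Ifitm3) and 3 lower (H2-K1, H2-D1 and Irf1). Without MYC/Otx2 replicate 1, 2 or 3 the calls numbered 4, 3 and 3.

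MYC/Otx2 against MYC/Gfi1 tumours, the comparison within 1 style of column name, gave 3 genes called lower and none higher: Ifitm1, Ifitm2 and Ifitm3. Of all tested genes 5.46% were called, 3.03% lower. The log2 fold change was negative for all 34 genes, with a median of -2.99 against -0.14 over all tested genes. Every MYC/Otx2 library lay below both MYC/Gfi1 libraries for 28 of 34 genes, against 23.6% of all tested genes. At an unadjusted p under 0.05, 20 of 34 genes passed, against 28.3% of all tested genes. DESeq2, which called more of the set than edgeR in all 6 comparisons, called 15, and its share over all tested genes is not given here. Leaving out N1ICD replicate 2 gave 8 calls, leaving out MYC/Gfi1 replicate 1 gave 6, and leaving out MYC/Otx2 replicate 1 or 3 gave 1.

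The other 3 comparisons gave 1 call each. In N1ICD against MYC/Gfi1 tumours Ifitm1 was called lower, while 11.5% of all tested genes were called, 6.05% lower. In S100b-cell against MYC/Gfi1 tumours Ifitm2 was called higher, while 4.35% of all tested genes were called, 2.34% higher. In N1ICD against S100b-cell tumours Ifitm1 was called lower, while 1.21% of all tested genes were called, 0.407% lower. The median of the 34 log2 fold changes was -0.22 in N1ICD against MYC/Gfi1 tumours (-0.01 over all tested genes), 0.32 in S100b-cell against MYC/Gfi1 tumours (0.01) and -0.60 in N1ICD against S100b-cell tumours (-0.06).

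These medians moved with single libraries. Without N1ICD replicate 2 the median was -2.92 in N1ICD against MYC/Gfi1 and -2.98 in N1ICD against S100b-cell tumours. In both, the calls then were the same 5 genes, all lower: H2-K1, H2-D1, Irgm1, Irf1 and B2m, and Ifitm1 was no longer called. Without MYC/Gfi1 replicate 2 the median was 0.87 in N1ICD against MYC/Gfi1 and 1.38 in S100b-cell against MYC/Gfi1 tumours. Without S100b-cell replicate 1 the median was -0.21 in S100b-cell against MYC/Gfi1 and 0.37 in N1ICD against S100b-cell tumours.

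**Figure D2:**
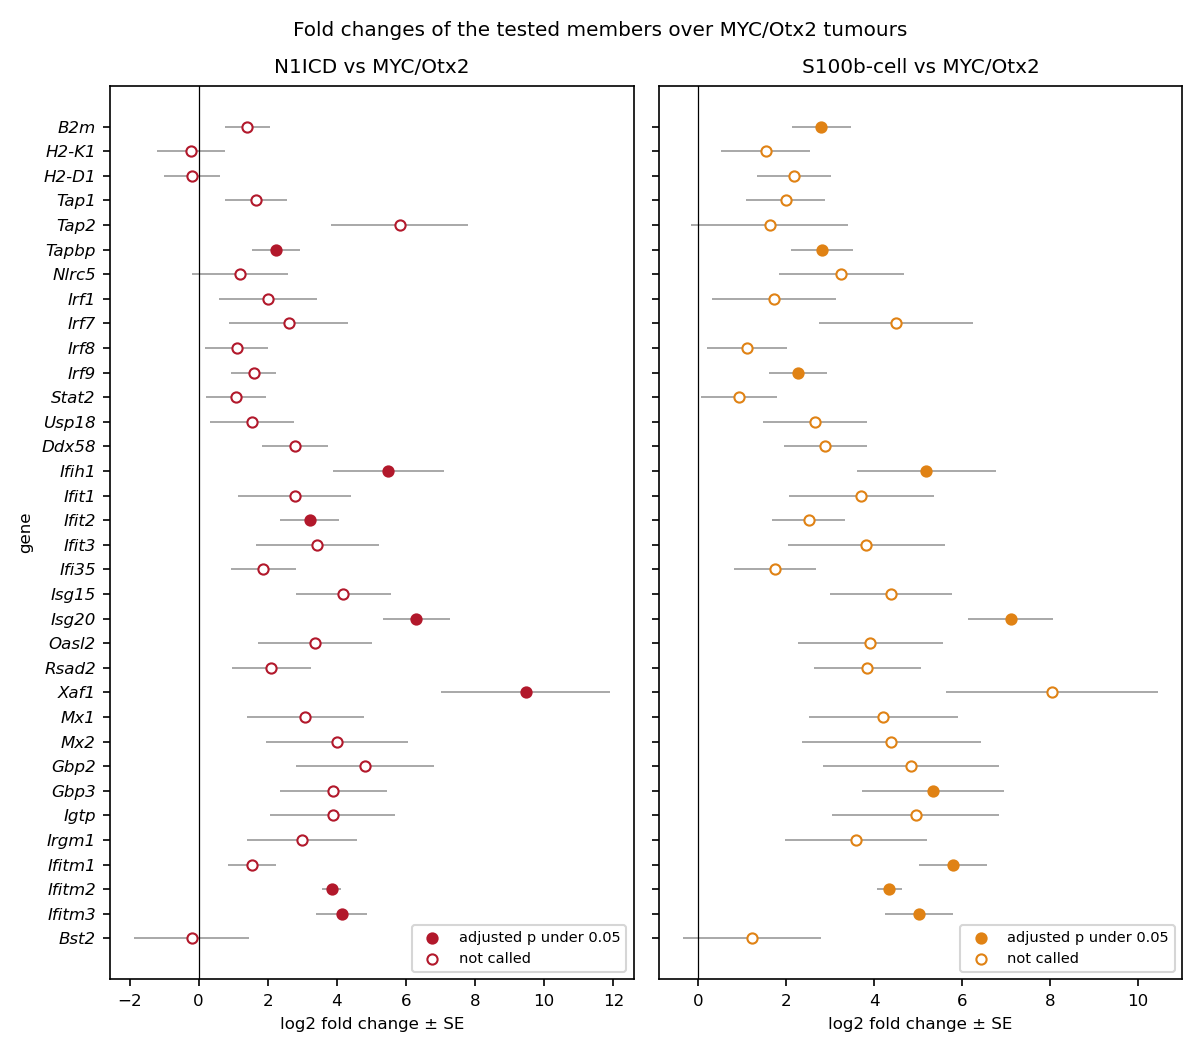
Log2 fold change (horizontal axis, with its SE) of each of the 34 tested genes (rows) in N1ICD against MYC/Otx2 tumours on the left and S100b-cell against MYC/Otx2 tumours on the right, with called genes filled. All 34 points lie right of 0 on the right side and 31 on the left side, and the point of Xaf1, at 0 counts in all MYC/Otx2 libraries, rests on a prior count.

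The class I chains were high in S100b-cell and MYC/Gfi1 tumours. B2m, the light chain that every class I molecule needs, stood at 137, 906 and 159 CPM in N1ICD tumours and at 1420, 985 and 761 CPM in S100b-cell tumours. It stood at 199, 131 and 123 CPM in MYC/Otx2 tumours and at 548 and 477 CPM in MYC/Gfi1 tumours. S100b-cell libraries lay above all others apart from N1ICD replicate 2, and the other N1ICD libraries lay within the range of MYC/Otx2. B2m averaged 1055 ± 335 CPM in S100b-cell and 151 ± 41.7 CPM in MYC/Otx2 tumours (SD, n = 3 each), a log2 fold change of 2.81 ± 0.67 (SE, edgeR adjusted p = 0.0208). The call was lost without S100b-cell replicate 1 or any 1 of the 3 MYC/Otx2 libraries, where the edgeR adjusted p was 0.0518 to 0.0769.

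H2-K1 and H2-D1, the heavy chains, were called by edgeR in none of the 6 comparisons, while DESeq2 called H2-D1 in 4 and H2-K1 in none. H2-K1 had 16.7, 255 and 13.4 CPM in N1ICD tumours and 371, 332 and 268 CPM in S100b-cell tumours. Its levels were 209.5, 86.7 and 37.7 CPM in MYC/Otx2 tumours and 328 and 640 CPM in MYC/Gfi1 tumours. N1ICD replicates 1 and 3 lay below every other library, while replicate 2 lay among the rest. H2-D1 followed the same order, with 17.1, 153 and 17.0 CPM in N1ICD tumours. In N1ICD against MYC/Gfi1 tumours the log2 fold change of H2-D1 was -2.49 ± 0.91 (edgeR adjusted p = 0.0981), and the libraries did not overlap. Without N1ICD replicate 2 both heavy chains were called lower in N1ICD than in each of the other 3 groups. Class I heavy chain genes resemble each other in sequence, and the labels do not say how reads shared between such genes were counted, so their values are taken as uncertain.

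Of the peptide loading genes, Tapbp, which holds class I molecules at the transporter, was the only one called. It had 45.0, 126 and 16.6 CPM in N1ICD tumours and 130, 91.8 and 60.1 CPM in S100b-cell tumours. In MYC/Otx2 tumours the levels were 19.4, 12.6 and 8.32 CPM, and in MYC/Gfi1 tumours 41.9 and 109 CPM. Every S100b-cell and MYC/Gfi1 library lay above every MYC/Otx2 library, and N1ICD replicate 3 lay within the MYC/Otx2 range.

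Tapbp was higher in S100b-cell than in MYC/Otx2 tumours by 2.81 ± 0.70 on the log2 scale (edgeR adjusted p = 0.0247) and in N1ICD than in MYC/Otx2 tumours by 2.23 ± 0.69 (edgeR adjusted p = 0.0453). The S100b-cell call was lost without S100b-cell replicate 1 or 2 or any 1 of the 3 MYC/Otx2 libraries, where the adjusted p was 0.0543 to 0.0892. The N1ICD call was lost in 8 of 11 such fits, those without N1ICD replicate 1 or 2 or any 1 of the S100b-cell or MYC/Otx2 libraries, with an adjusted p of 0.0532 to 0.186. Tap1 and Tap2, the transporter, ranged from 2.84 to 67.3 CPM and from 0 to 51.5 CPM over the 11 libraries and were called in no comparison. Tap2 was the 1 gene of the set with its highest level in N1ICD replicate 1.

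Nlrc5, the transactivator of class I genes, stood at 0, 11.2 and 0.41 CPM in N1ICD tumours and at 18.6, 21.6 and 9.54 CPM in S100b-cell tumours. It stood at 2.83, 2.37 and 0 CPM in MYC/Otx2 tumours and at 5.71 and 4.94 CPM in MYC/Gfi1 tumours. S100b-cell libraries lay above those of MYC/Otx2 and MYC/Gfi1 without overlap. The log2 fold change over MYC/Otx2 was 3.26 ± 1.42 (edgeR adjusted p = 0.133), and no comparison called it. In N1ICD replicates 1 and 3 it was under the limit of 3 counts, which is 1.29 and 1.22 CPM there, so it was not detectable at this depth.

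Among the signalling factors, Irf1, a transcription factor that interferon gamma induces, had the widest spread in N1ICD tumours. It had 1.71, 265 and 2.03 CPM in N1ICD tumours and 127, 71.4 and 23.1 CPM in S100b-cell tumours. The levels were 30.4, 15.4 and 21.0 CPM in MYC/Otx2 and 43.0 and 36.2 CPM in MYC/Gfi1 tumours. N1ICD tumours held both the highest library and the lowest, and no comparison called Irf1, with edgeR adjusted p-values of 0.329 in N1ICD and 0.412 in S100b-cell against MYC/Otx2 tumours. Without N1ICD replicate 2 it was called lower in N1ICD than in each of the other groups.

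Irf9, the DNA-binding part of the type I complex, had 21.4, 105 and 19.1 CPM in N1ICD tumours and 104, 72.1 and 58.7 CPM in S100b-cell tumours. MYC/Otx2 tumours had 23.2, 10.7 and 14.6 CPM and MYC/Gfi1 tumours had 51.6 and 113 CPM. Every S100b-cell and MYC/Gfi1 library lay above the MYC/Otx2 range. In S100b-cell against MYC/Otx2 tumours Irf9 was higher by 2.28 ± 0.66 on the log2 scale (edgeR adjusted p = 0.0400), and the call was lost without any 1 of the libraries of these groups (adjusted p of 0.0731 to 0.124). Irf7, Irf8, Stat2 and Usp18, the last a brake on the interferon receptor, were called in no comparison.

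Of the RNA sensors Ddx58, also known as RIG-I, and Ifih1, also known as MDA5, only Ifih1 was called. It had 12.4, 37.0 and 0.41 CPM in N1ICD tumours and 25.8, 8.09 and 6.73 CPM in S100b-cell tumours. Its levels were 1.13, 0 and 0 CPM in MYC/Otx2 tumours and 3.96 and 7.41 CPM in MYC/Gfi1 tumours. S100b-cell and MYC/Gfi1 libraries lay above MYC/Otx2, and N1ICD replicate 3 lay within its range. The log2 fold change over MYC/Otx2 was 5.48 ± 1.60 in N1ICD (edgeR adjusted p = 0.0366) and 5.19 ± 1.58 in S100b-cell tumours (edgeR adjusted p = 0.0478).

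The Ifih1 calls were not stable. In N1ICD tumours the call was lost without MYC/Otx2 replicate 2 or 3, S100b-cell replicate 2 or 3, or N1ICD replicate 1 or 2, with an adjusted p of 0.0501 to 0.109. In S100b-cell tumours it was lost without either MYC/Gfi1 library, MYC/Otx2 replicate 2 or 3, any 1 of the S100b-cell libraries or N1ICD replicate 1, with an adjusted p of 0.0508 to 0.128.

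Of the 9 other effectors, Rsad2 reached 13.99 CPM and Ifi35 6.50 CPM in a MYC/Otx2 library, and the rest stood at 2.68 CPM or less in all MYC/Otx2 libraries. Xaf1, a proapoptotic gene that interferons induce, had 2.14, 29.3 and 0.81 CPM in N1ICD tumours and 9.06, 1.87 and 1.17 CPM in S100b-cell tumours. It had 0 counts in the 3 MYC/Otx2 libraries, and 0.12 and 1.89 CPM in MYC/Gfi1 tumours. Folds were taken from the pooled counts of each group, against a floor of 3 counts over the MYC/Otx2 group. So pooled, Xaf1 was at least 33.8-fold higher in S100b-cell tumours (182 counts, edgeR adjusted p = 0.0539, not called), where replicate 1 stood highest. In N1ICD tumours it was at least 94.0-fold higher (91 counts, edgeR adjusted p = 0.0297). These pooled folds are not bounds for each library. Of the 91 counts 84 came from N1ICD replicate 2, and the call was lost without it or without any 1 of the MYC/Otx2 libraries (adjusted p of 0.0707 to 0.0751).

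Isg20, a nuclease that degrades viral RNA, had 3.43, 5.93 and 4.06 CPM in N1ICD tumours and 11.6, 3.46 and 8.60 CPM in S100b-cell tumours. MYC/Otx2 tumours held 1 count in all, in replicate 2, and MYC/Gfi1 tumours had 0.82 and 0.73 CPM. Here the N1ICD libraries lay close together and every library of the other groups lay above MYC/Otx2. The pooled ratio to MYC/Otx2 was 108 in N1ICD tumours (95% counting interval 18.2 to 4410) and 189 in S100b-cell tumours (33.6 to 7470). The edgeR adjusted p-values were 0.00290 for N1ICD and 0.00222 for S100b-cell against MYC/Otx2 tumours, and both calls were kept in all 19 alternatives.

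Ifit2, which binds viral RNA, had 6.86, 14.3 and 5.27 CPM in N1ICD tumours and 11.2, 3.25 and 1.88 CPM in S100b-cell tumours. In MYC/Otx2 tumours the levels were 1.41, 0.37 and 1.04 CPM, and in MYC/Gfi1 tumours 3.26 and 7.70 CPM. All other groups lay above MYC/Otx2 without overlap. Ifit2 was higher in N1ICD than in MYC/Otx2 tumours by 3.21 ± 0.86 on the log2 scale (edgeR adjusted p = 0.0260), and the call was lost without N1ICD replicate 2 or any 1 of the MYC/Otx2 libraries (adjusted p of 0.0580 to 0.0812).

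Rsad2, the antiviral enzyme viperin, had 9.86, 90.6 and 4.87 CPM in N1ICD tumours and 257, 51.7 and 46.2 CPM in S100b-cell tumours. The levels were 13.99, 5.23 and 5.43 CPM in MYC/Otx2 and 43.7 and 278 CPM in MYC/Gfi1 tumours. MYC/Otx2 lay below S100b-cell and MYC/Gfi1 tumours without overlap, and 1 library in each of the other 3 groups stood far above its partners. No comparison called Rsad2, whose log2 fold change was -4.29 ± 1.29 in MYC/Otx2 against MYC/Gfi1 tumours (edgeR adjusted p = 0.0758). Isg15, a ubiquitin-like protein, also had 1 high library in N1ICD and in S100b-cell tumours, with 5.57, 93.1 and 6.90 CPM in N1ICD tumours and 103, 12.4 and 6.80 CPM in S100b-cell tumours.

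The interferon-induced GTPases differed widely within N1ICD tumours. Igtp, which guards against parasites within vacuoles, had 2.57, 496 and 3.65 CPM in N1ICD tumours and 551, 400 and 109 CPM in S100b-cell tumours. MYC/Otx2 tumours had 30.4, 2.74 and 1.39 CPM and MYC/Gfi1 tumours had 106 and 166 CPM. N1ICD replicate 2 lay within the S100b-cell range while replicates 1 and 3 lay within the MYC/Otx2 range. No comparison called Igtp, and the log2 fold change in S100b-cell against MYC/Otx2 tumours was 4.95 ± 1.90 (edgeR adjusted p = 0.0953).

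Gbp3, a guanylate-binding protein, was the 1 GTPase called. It had 1.29, 46.0 and 2.03 CPM in N1ICD tumours and 87.9, 35.1 and 12.2 CPM in S100b-cell tumours. Its levels were 0.42, 2.86 and 0 CPM in MYC/Otx2 tumours and 7.58 and 8.28 CPM in MYC/Gfi1 tumours. S100b-cell libraries lay above both constitutive groups. Gbp3 was higher in S100b-cell than in MYC/Otx2 tumours by 5.34 ± 1.61 on the log2 scale (edgeR adjusted p = 0.0458). The call was lost without any 1 of the S100b-cell, MYC/Otx2 or MYC/Gfi1 libraries (adjusted p of 0.0517 to 0.136). Gbp2, Irgm1, Mx1 and Mx2 were called in no comparison, and Mx2 is annotated as a polymorphic pseudogene.

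The Ifitm genes, which encode membrane proteins that block viral entry, gave the firmest differences. Ifitm2 had 50.2, 64.8 and 68.2 CPM in N1ICD tumours and 80.9, 70.6 and 107 CPM in S100b-cell tumours. It had 4.10, 5.11 and 3.47 CPM in MYC/Otx2 tumours and 34.97 and 34.7 CPM in MYC/Gfi1 tumours. The groups did not overlap in any of the 6 comparisons, with S100b-cell highest, then N1ICD, MYC/Gfi1 and MYC/Otx2. N1ICD replicate 2, far above its partners for most of the set, was in the middle of its group here.

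Ifitm2 was higher than in MYC/Otx2 tumours by 3.85 ± 0.28 in N1ICD (edgeR adjusted p = 1.81e-04) and by 4.35 ± 0.28 in S100b-cell tumours (edgeR adjusted p = 8.16e-05) on the log2 scale. In MYC/Otx2 against MYC/Gfi1 tumours its log2 fold change was -3.04 ± 0.28 (edgeR adjusted p = 0.00237). These 3 calls were kept in all 19 alternatives. In S100b-cell against MYC/Gfi1 tumours it was higher by 1.31 ± 0.28 (edgeR adjusted p = 0.0351), and that call was lost without MYC/Gfi1 replicate 2 or any 1 of the S100b-cell or MYC/Otx2 libraries (adjusted p of 0.0518 to 0.137). N1ICD and S100b-cell tumours differed by -0.50 ± 0.24 (edgeR adjusted p = 0.304), and N1ICD and MYC/Gfi1 tumours by 0.81 ± 0.28 (edgeR adjusted p = 0.0853), neither called.

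Ifitm3 had 174, 704 and 116 CPM in N1ICD tumours and 904, 528 and 419 CPM in S100b-cell tumours. In MYC/Otx2 tumours the levels were 27.97, 18.1 and 10.6 CPM, and in MYC/Gfi1 tumours 101 and 212 CPM. Every library of the other groups lay above every MYC/Otx2 library. Against MYC/Otx2 tumours Ifitm3 was higher by 4.13 ± 0.74 in N1ICD (edgeR adjusted p = 0.00556) and by 5.03 ± 0.77 in S100b-cell tumours (edgeR adjusted p = 0.00370), and both calls were kept in all 19 alternatives. In MYC/Otx2 against MYC/Gfi1 tumours its log2 fold change was -3.05 ± 0.74 (edgeR adjusted p = 0.0451). That call was lost without MYC/Gfi1 replicate 2, S100b-cell replicate 2 or 3, or any 1 of the MYC/Otx2 libraries (adjusted p of 0.0627 to 0.170).

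Ifitm1 separated N1ICD from S100b-cell tumours. It had 1.71, 9.06 and 12.6 CPM in N1ICD tumours and 137, 143 and 171 CPM in S100b-cell tumours. The levels were 3.11, 1.37 and 3.58 CPM in MYC/Otx2 and 117 and 26.7 CPM in MYC/Gfi1 tumours. N1ICD libraries were low with MYC/Otx2, whose range they overlapped, and below both MYC/Gfi1 libraries, whereas Ifitm2 and Ifitm3 were high in N1ICD tumours. The log2 fold change was -4.26 ± 0.73 in N1ICD against S100b-cell tumours (edgeR adjusted p = 0.0307) and -3.19 ± 0.74 in N1ICD against MYC/Gfi1 tumours (edgeR adjusted p = 0.0252).

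Ifitm1 was also higher in S100b-cell than in MYC/Otx2 tumours, by 5.79 ± 0.78 (edgeR adjusted p = 0.00220), a call kept in all 19 alternatives. In MYC/Otx2 against MYC/Gfi1 tumours the log2 fold change was -4.73 ± 0.77 (edgeR adjusted p = 0.0150), lost without MYC/Otx2 replicate 1 or 3 (adjusted p of 0.0594 to 0.0635). The N1ICD against S100b-cell call was lost without N1ICD replicate 2 or 3, MYC/Otx2 replicate 1 or 3, or any 1 of the S100b-cell libraries (adjusted p of 0.0514 to 0.119). The N1ICD against MYC/Gfi1 call was lost without MYC/Gfi1 replicate 1 or N1ICD replicate 2 (adjusted p of 0.0633 to 0.132), where the log2 fold change lay between -3.31 and -1.76. The Ifitm genes resemble each other in sequence, and the same doubt about shared reads applies to them. Bst2, or tetherin, which ties viruses to the cell surface, ranged from 0.41 to 26.3 CPM over the libraries and was called in no comparison.

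**Figure D3:**
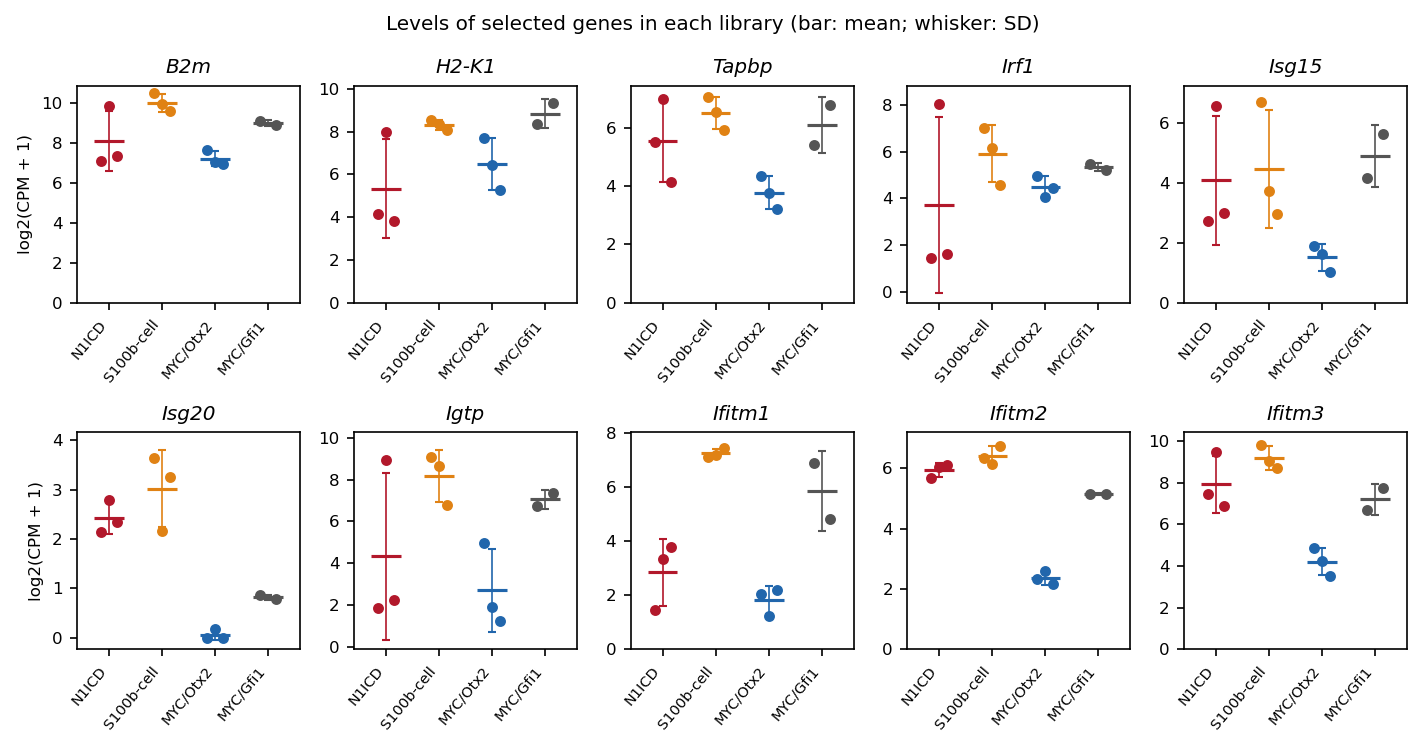
Level, as log2(CPM + 1), of 10 genes in each library (points) by group, with the mean (bar) and SD (whisker). Ifitm2 and Isg20 are close within groups, while H2-K1, Irf1, Isg15 and Igtp have 1 N1ICD library, replicate 2, far above the other N1ICD libraries.

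Within each group 1 library carried most of the high values. N1ICD replicate 2 was the highest of its group for 31 of 34 genes, with a median ratio to the mean of its partners of 8.68, against 0.992 over all tested genes. S100b-cell replicate 1 was the highest of its group for 28 genes (median ratio 3.00), and MYC/Gfi1 replicate 2 of its pair for 26 (median ratio 2.07). MYC/Otx2 replicate 1 was the highest of its group for 25 genes (median ratio 1.81). Over all tested genes the median ratio of these last 3 libraries lay between 0.969 and 1.02.

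The roles did not shift alike. In N1ICD replicate 2 the median ratio was 52.8 for the 6 GTPases, 13.1 for the 9 other effectors, 10.4 for the 6 signalling factors, 8.73 for the 3 class I chains and 3.05 for the 4 membrane restriction genes. Gbp2 had the widest ratio, at 145. In S100b-cell replicate 1 the 9 other effectors stood out, with a median ratio of 5.20, while the class I chains had 1.24. In MYC/Gfi1 replicate 2 the effectors had 3.87 and the class I chains 1.28. The GTPases, which had 52.8 in N1ICD replicate 2, had 4.19 in S100b-cell replicate 1 and 1.33 in MYC/Gfi1 replicate 2. These ratios compare single libraries, with 0.5 CPM added to each value, and were not tested.

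**Figure D4:**
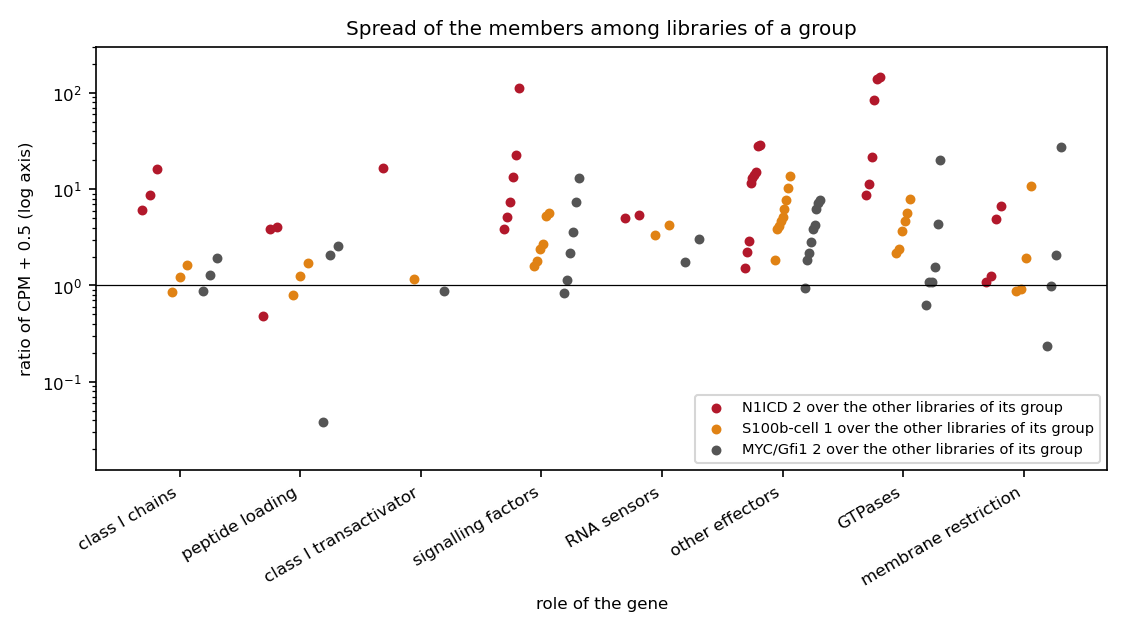
Ratio of the level in 1 library to the mean of its partners in the group (vertical axis, log scale, 0.5 CPM added), for each tested gene, by role. In N1ICD replicate 2 the GTPases reach 145 and most roles lie above 1, while in S100b-cell replicate 1 and MYC/Gfi1 replicate 2 the class I chains lie near 1 and the other effectors above it.

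The spread between libraries of a group was accordingly wide. The median ratio of the highest to the lowest library was 16.2 in N1ICD tumours for these genes, against 2.02 over all tested genes. It was 5.21 in S100b-cell (1.53 over all genes), 2.54 in MYC/Otx2 (1.59) and 2.17 in MYC/Gfi1 tumours (1.75).

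Markers of immune cells moved with some of these levels. Summed over 12 T and NK cell markers, N1ICD tumours held 1.29, 39.7 and 2.03 CPM and S100b-cell tumours 85.7, 52.1 and 17.8 CPM. MYC/Otx2 tumours held 8.19, 2.24 and 5.89 CPM and MYC/Gfi1 tumours 30.3 and 31.4 CPM. N1ICD replicate 2 and S100b-cell replicate 1 were again the highest of their groups, and in MYC/Otx2 tumours 7 of the 12 markers, among them Cd3e, Cd3d, Cd3g, Gzmb and Prf1, were at 0 in all libraries. In N1ICD tumours Cd3e was at 0 in all 3 libraries, replicate 2 included. The sums of N1ICD replicates 1 and 3 lie near the level of 3 counts there, 1.29 and 1.22 CPM. In S100b-cell against MYC/Otx2 tumours 3 of 11 tested markers were called higher and none lower, while 10.0% of all tested genes were called higher. With 1 library left out in turn 0 to 6 were called. The part of T and NK cells in the results was not tested.

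Markers of microglia and macrophages were high in S100b-cell and MYC/Gfi1 tumours, as the interferon set was, and lower in MYC/Otx2 and N1ICD tumours. Over 16 of their markers N1ICD tumours held 270, 581 and 434 CPM and S100b-cell tumours 1397, 1493 and 1558 CPM. MYC/Otx2 tumours held 800, 496 and 223 CPM and MYC/Gfi1 tumours 1091 and 1350 CPM. S100b-cell replicate 1, highest of its group for most of the interferon set, was lowest of its group here. In S100b-cell against MYC/Otx2 tumours 5 of 16 markers were called higher and none lower, while 10.0% of all tested genes were called higher, and with 1 library left out in turn 0 to 7 were called. The part of these cells in the results was not tested.

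**Figure D5:**
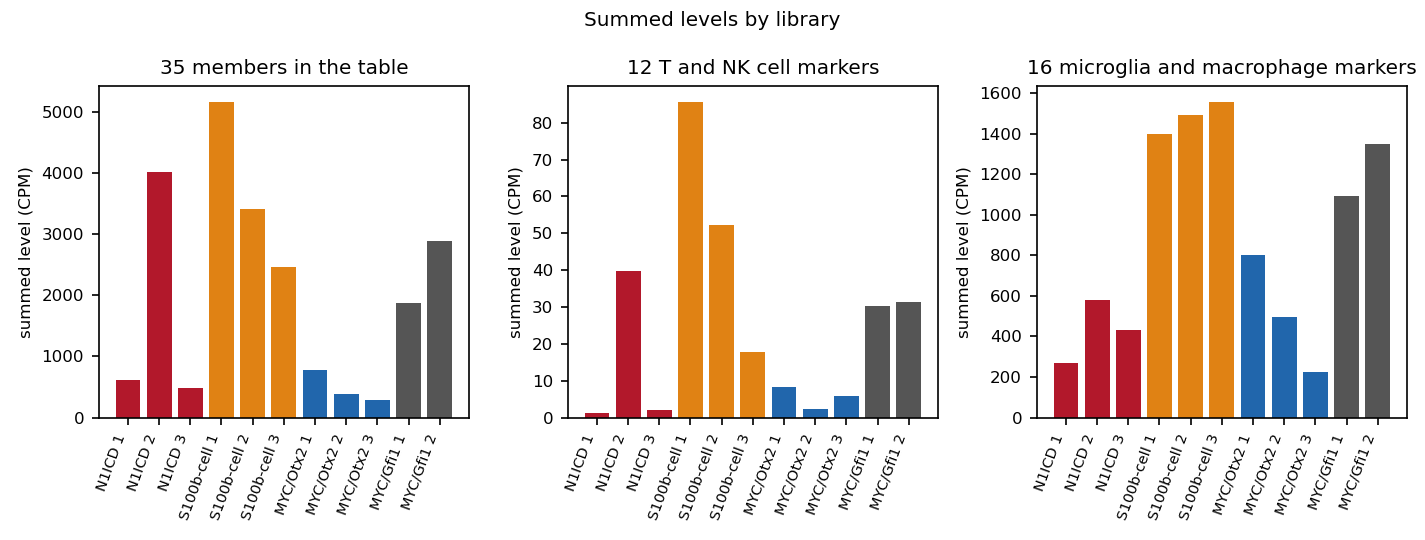
Summed level in CPM in each library of the 35 genes (left), of 12 T and NK cell markers (middle) and of 16 microglia and macrophage markers (right), coloured by group. The T and NK sum is highest in S100b-cell replicate 1 at 85.7 CPM and stands at 39.7 CPM in N1ICD replicate 2, while the microglia sum stays at 581 CPM or less in all N1ICD libraries.

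Other marker lists varied within groups in other ways. Over 8 pericyte and smooth muscle markers N1ICD tumours held 275, 6750 and 2707 CPM, against 109 to 209 CPM in S100b-cell, 65.0 to 136 CPM in MYC/Otx2 and 54.4 and 144 CPM in MYC/Gfi1 tumours. N1ICD replicate 3, low for the interferon set, was thus high for these markers. MYC/Gfi1 replicate 2 held 3054 CPM over 6 markers of mature cerebellar neurons, against 69.2 CPM in its partner. The B and plasma cell sum was 525 CPM in MYC/Gfi1 replicate 1 and 26.4 CPM in replicate 2, against 0 to 0.14 CPM in MYC/Otx2 tumours. Whether these cells contributed to the results was not tested.

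Of the interferons, Ifnb1 had 0 counts in all 11 libraries. Ifng, the gene of interferon gamma, had 0, 1.74 and 0 CPM in N1ICD tumours and 4.27, 0.41 and 0.39 CPM in S100b-cell tumours. MYC/Otx2 tumours had 0.57, 0 and 0 CPM and MYC/Gfi1 tumours had 0.70 and 0 CPM. Its highest values fell in S100b-cell replicate 1, with 66 counts, and in N1ICD replicate 2, with 5 counts, and the other libraries held 6 counts or fewer. Of the receptor genes, in S100b-cell against MYC/Otx2 tumours Ifnlr1 was called higher, at 2.67 ± 2.20 against 0.04 ± 0.07 CPM, and Ifnar2 lower, at 16.5 ± 1.63 against 37.9 ± 13.1 CPM (SD, n = 3 each). Both calls were lost without MYC/Otx2 replicate 1 or 2 or S100b-cell replicate 2 or 3, and that of Ifnlr1 also without MYC/Otx2 replicate 3.

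Of 12 JAK, STAT and feedback genes, 1 was called in N1ICD and 2 in S100b-cell against MYC/Otx2 tumours, all higher, with the phosphatase gene Ptpn2 called in both, while 12.0% and 10.0% of all tested genes were called higher in these comparisons. Cish, a feedback inhibitor of cytokine signalling, was called higher in all other groups than in MYC/Gfi1 tumours, at 1.30 CPM in N1ICD, 2.44 CPM in S100b-cell and 4.90 CPM in MYC/Otx2 tumours against 0.07 CPM in MYC/Gfi1 tumours (edgeR adjusted p = 0.0351, 0.0300 and 0.0172), where 1 count was found in all.

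Of 30 other interferon-stimulated genes tested, 5 were called higher in N1ICD than in MYC/Otx2 tumours and 7 in S100b-cell than in MYC/Otx2 tumours, and none lower, while 12.0% and 10.0% of all tested genes were called higher in these comparisons. None of the 30 was called in the other 4 comparisons. Summed over 32 of these genes in the table, the level was 81.0, 2691 and 60.5 CPM in N1ICD tumours, against 183, 48.3 and 55.5 CPM in MYC/Otx2 tumours, so N1ICD replicates 1 and 3 lay within the MYC/Otx2 range. With 1 library left out in turn the calls numbered 1 to 9 in N1ICD and 1 to 16 in S100b-cell against MYC/Otx2 tumours, and without N1ICD replicate 2 they numbered 1 in N1ICD and 16 in S100b-cell. In both sets were Ifi44, Herc6, Ifi203 and Eif2ak2, the kinase PKR that halts translation on viral RNA. Eif2ak2 averaged 21.2 CPM in N1ICD and 21.9 CPM in S100b-cell tumours, against 2.56 CPM in MYC/Otx2 tumours, with edgeR adjusted p-values of 0.0147 for N1ICD and 0.0161 for S100b-cell. Among 5 immunoproteasome genes only Psmb9, a peptide-cutting subunit, was called, higher in N1ICD than in MYC/Otx2 tumours (19.3 against 2.001 CPM, edgeR adjusted p = 0.0415). None was called there without N1ICD replicate 1 or 2, S100b-cell replicate 1 or any 1 of the MYC/Otx2 libraries.

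Of 11 other class I and loading genes tested, 2 were called higher in N1ICD and 3 in S100b-cell than in MYC/Otx2 tumours, against 12.0% and 10.0% of all tested genes. Tapbpl, a relative of Tapbp that edits bound peptides, was called in both and averaged 10.6 CPM in N1ICD and 11.1 CPM in S100b-cell tumours, against 0.66 CPM in MYC/Otx2 tumours. It was also called lower in MYC/Otx2 than in MYC/Gfi1 tumours, where it averaged 5.05 CPM. Pdia3, a disulphide isomerase of the loading complex, was called higher in N1ICD and in S100b-cell tumours than in each constitutive group, at 348 and 273 CPM against 95.7 CPM in MYC/Otx2 and 118 CPM in MYC/Gfi1 tumours.

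Of 13 further genes that sense viral nucleic acid or carry that signal, 1 was called higher in N1ICD than in MYC/Otx2 tumours and 2 in S100b-cell than in MYC/Otx2 tumours, against 12.0% and 10.0% of all tested genes. Ikbke, a kinase that activates interferon genes, was called in both, averaged 3.48 CPM in N1ICD and 1.97 CPM in S100b-cell tumours, and had 0 counts in every MYC/Otx2 library. It was also called lower in MYC/Otx2 than in MYC/Gfi1 tumours, where it averaged 4.03 CPM (edgeR adjusted p = 0.0136). Mavs was called higher in S100b-cell than in MYC/Gfi1 tumours (31.8 against 10.4 CPM, edgeR adjusted p = 0.0372). In S100b-cell tumours Zbp1, a sensor of left-handed nucleic acid, averaged 11.9 CPM, against 0.13 CPM in MYC/Otx2 tumours (edgeR adjusted p = 0.0394), a call lost without any 1 of the libraries of these groups.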

How the data were processed

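Per the labels' protocols, TRIzol RNA of whole tumours was made into QuantSeq 3′ mRNA libraries (forward kit) with unique molecular identifiers. STAR 2.4.1d, HTSeq 0.6.1 and mm10 are named in the submitters' processing notes, without their settings. The sources used here do not give the strand setting, the annotation or whether identifiers were collapsed. What the authors deposited was a table of raw counts by gene symbol, not normalized, with 1 column for each of the 11 libraries, matched by its name in the labels. Totals ran from 2.58 to 15.19 M counts. The intervals and floors drawn from them cover counting error only.

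Counts were analysed in edgeR 4.0.16 (R 4.3.3) with filterByExpr by group, TMM scaling and 1 robust quasi-likelihood fit of 4 group means, since MYC/Gfi1 had 2 libraries. The fit tested 15228 genes, with a common biological coefficient of variation of 0.562. P-values were two-sided and adjusted by Benjamini-Hochberg over these genes in each comparison, and calls were made at 0.05. SEs were derived from the F values (log2 fold change divided by the root of F). CPM values used the scaled totals of the tested genes and were not divided by gene length. Group differences were tested within each gene. The choice of the gene with the highest mean CPM in a role, and the sums over lists, do set genes side by side. Such sums follow the genes with high CPM most. Where a group had 0 counts in every library, a fold of the pooled counts of the other group was taken against 3 counts over the group. Tested on simulated data made from the real means, the fit recovered 11% to 20% of 4-fold changes and 34% to 48% of 8-fold changes over the 6 comparisons on 15228 genes, lowest in MYC/Otx2 against MYC/Gfi1. Alternatives were RLE and upper-quartile factors, no low-count filter, DESeq2 1.42.0, limma-voom (limma 3.58.1), the compared groups alone, removal of mitochondrially encoded genes, a replicate block and each library left out in turn.

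The genes and lists were chosen with earlier results of these data known. In full were given the genes called in at least 1 comparison and, in each role, the gene with the highest mean CPM; H2-K1, H2-D1 and Isg15 were added after their values were seen. From the other lists, called genes with small p-values are named, and those with 0 counts in a group are given without a fold. Promoter windows were read from a RefSeq table and searched as text. No pair of libraries agreed within sampling noise (chi-square per degree of freedom of 22.6 or more).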

Additional observations from a re-analysis of the deposited data

How the results depend on the processing

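The count of genes called was recomputed under 8 other settings and with each of the 11 libraries left out. None of the 22 calls of the main fit changed its direction, but genes not called there could. The log2 fold change of Irf1 in N1ICD tumours was 2.01 against MYC/Otx2, 1.18 against MYC/Gfi1 and 0.28 against S100b-cell tumours in the main fit. Without N1ICD replicate 2, Irf1 was called lower in each of these comparisons. Irgm1, at 1.03 in N1ICD against MYC/Gfi1 tumours in the main fit, was then also called lower there. With DESeq2 the counts were 4 in N1ICD against MYC/Gfi1, 2 in S100b-cell against MYC/Gfi1, 2 in N1ICD against S100b-cell, 15 in MYC/Otx2 against MYC/Gfi1, 12 in N1ICD against MYC/Otx2 and 18 in S100b-cell against MYC/Otx2 tumours, in place of 1, 1, 1, 3, 7 and 9. With limma-voom they were 0 in N1ICD against S100b-cell, 5 in MYC/Otx2 against MYC/Gfi1 and 3 in N1ICD against MYC/Otx2 tumours, and in N1ICD against MYC/Gfi1 tumours the 1 gene called was H2-D1 in place of Ifitm1. Fitting the compared groups alone gave 0 in N1ICD and 0 in S100b-cell against MYC/Gfi1, 5 in MYC/Otx2 against MYC/Gfi1 and 23 in S100b-cell against MYC/Otx2 tumours. Without a low-count filter S100b-cell against MYC/Gfi1 gave 0. The share of all tested genes called in each of these fits, and in those without a library, is not given here. The counts therefore do not show whether calls moved for this set alone or for all genes. The cause of these differences was not tested. Leaving out 1 library at a time gave 0 to 5 calls in N1ICD against MYC/Gfi1, 0 to 1 in S100b-cell against MYC/Gfi1, 0 to 5 in N1ICD against S100b-cell, 1 to 8 in MYC/Otx2 against MYC/Gfi1, 3 to 9 in N1ICD against MYC/Otx2 and 4 to 17 in S100b-cell against MYC/Otx2 tumours. Where a MYC/Gfi1 library is left out, the lone one is assumed to vary like the other groups. With a replicate block the counts were 0 in N1ICD and 0 in S100b-cell against MYC/Gfi1, 0 in N1ICD against S100b-cell and 4 in N1ICD against MYC/Otx2 tumours. The correlation of the deviations of libraries with the same number ran from -0.176 to 0.213, so the numbers were not taken to pair the samples. Of the 22 single calls, 8 were kept in all 19 alternatives: Ifitm2 and Ifitm3 over MYC/Otx2 in both N1ICD and S100b-cell, Isg20 likewise, Ifitm1 in S100b-cell against MYC/Otx2 and Ifitm2 in MYC/Otx2 against MYC/Gfi1 tumours. N1ICD libraries were the shallowest, where 3 counts are 1.05 to 1.29 CPM, and low genes were least certain there. Leaving out libraries for the order of group means and for the other gene lists was chosen after the data were seen.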
